A study of Arabidopsis thaliana with 9 samples.

Results

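The transcriptome of wild-type Arabidopsis thaliana shoots near the end of a long day was described from 3 of the 9 Affymetrix ATH1 arrays of a study of flowering mutants. The 3 arrays were those labelled as the Columbia control. Probe sets that match exactly 1 gene were ranked by the mean log2 signal over these 3 arrays, which gave an order for 13513 of the 22746 probe sets that are not Affymetrix controls. The signal is the MAS5 value, a summary of the brightness of a probe set on a linear scale that the authors had set to the same trimmed mean on every array. Signals of different probe sets depend on their probes as well as on RNA, so the order below is an order of signals and not of molecules.

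The wild type was Col-1. Of the other groups, used for comparison, 3 arrays came from a triple T-DNA knockout of HAP5 genes in Col-0, given with the source name Q3, and 3 from a constans mutant given as co-SAIL, with no background stated. All plants were kept at 4 °C for 4 days and then grown in soil at 22 °C in days of 16 h light and 8 h dark. Whole above-ground tissue was collected on day 10, at growth stage 1.03, at 14 h after lights on. Nothing in the labels tells whether replicate arrays stand for separate batches of plants, so an SD or a p-value measures the spread between these arrays alone, and that spread may be technical. In whole shoots, fewer cells of a type and less RNA per cell cannot be told apart.

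A green shoot spends much of its transcription on the photosynthetic apparatus. Chloroplasts carry a small genome of their own, which encodes core subunits of both photosystems, the cytochrome b6f complex, the NADH dehydrogenase-like (NDH) complex, the ATP synthase and Rubisco, together with ribosomal proteins and an RNA polymerase of bacterial type. The nucleus encodes the remaining subunits, the antenna proteins and most enzymes of carbon fixation, and both genomes have to supply parts of the same complexes.

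The 3 wild-type arrays were alike in scale, with median signals of 34.7, 33.8 and 34.7 in arrays 1, 2 and 3. Their log2 signals correlated at 0.951 to 0.956 over all probe sets. Probe sets are no independent replicates. Control probe sets differed between them. The control for 25S ribosomal RNA differed across all 3 arrays at 22.6, 108 and 418. Array 3 had the lowest value of the ratio of the 3′ to the 5′ control of actin, which is lower when more of the transcript's length is represented in the target, at 5.09, 5.04 and 3.16. The ratio lay between 4.11 and 4.95 on the 6 mutant arrays. For the GAPDH control the same ratio varied less, at 1.11, 1.07 and 1.02 on the wild-type arrays and 0.98 to 1.13 on the mutant arrays. No gene was given for 8730 probe sets and several for 503, so many well-known leaf transcripts are not described here.

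The labelled tissue was checked with marker genes, of which 7 of 30 had a single-gene probe set. LHCB4.1, an antenna protein of photosystem II, gave signals of 5022, 6126 and 4545 in the 3 arrays, and RCA, the Rubisco activase, gave 5395, 6020.8 and 5497. The root hair expansin genes EXPA7 and EXPA18 stood at no more than 11.7 and 3.98, and the peroxidase gene PER57 at no more than 2.74. These levels were below the median signal of all probe sets, 34.1. PYK10, a beta-glucosidase of roots and hypocotyls, was the exception among the 4 measured root markers at 215, 193 and 211. CLV3, a peptide gene of a few cells in the shoot meristem, stood at 1.14, 0.49 and 1.11. The epidermis, phloem, seed and flower lists had no measured member.

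Of the 100 brightest of all probe sets, only 34 matched 1 gene, 5 matched several and 61 had no gene given, so the order described here leaves out most of the brightest signals. Of the 30 brightest single-gene probe sets, 14 were plastid-encoded, 6 were nuclear genes with a symbol and 10 were nuclear genes given by an identifier only. Among the 100 brightest these numbers were 27, 19 and 54. The plastid genome held only 69 of the 13513 ranked probe sets. The 100 brightest carried 9.52%, 10.8% and 9.83% of the summed signal in arrays 1, 2 and 3 (10.0% ± 0.647, SD, n = 3), and the 10 brightest carried 2.06% ± 0.261.

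Genes of the ATP synthase of the thylakoid stood at ranks 1 and 3. The signal of atpB, the catalytic beta subunit, was 8245, 10811 and 8299.6 in arrays 1, 2 and 3. That of atpE, the epsilon subunit whose gene lies next to atpB, was 6997, 9646 and 7113. The photosystem II subunit gene psbM stood between them in rank, at 7555, 11464.5 and 7295. In all 3 genes array 2 was the highest. On each array atpE was below the other two, while psbM was below atpB in arrays 1 and 3 and above it in array 2. The alpha subunit gene atpA was at 4324, 5773 and 5396, and ATPC1, the nuclear gene of the gamma subunit, was at 3728, 4808 and 4673. Thus 4 subunits of this enzyme from both genomes were among the 30 brightest.

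Genes of electron transport stood at ranks 9 to 11. The signal of petB, cytochrome b6, was 5035, 6407 and 5204, that of psaB, a core protein of photosystem I, was 4791, 5733 and 5562, and that of ndhI of the NDH complex was 4812, 6509.8 and 5624. In petB, psaB and ndhI array 1 was the lowest. The gene of the D1 protein of photosystem II, psbA, ranked lower at 2968, 5214 and 3913, with the widest spread of the 30 (SD 0.41 on the log2 scale). Nuclear genes of thylakoid proteins stood close to the plastid ones. PSAE-1, of the stromal side of photosystem I, gave 3695, 4443 and 4193, and CURT1A (AT4G01150), which bends thylakoid membranes, gave 3964, 5048 and 4045.

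Carbon fixation was represented by regulatory enzymes. PRK, phosphoribulokinase, which regenerates the acceptor of CO2, stood at 3697, 4071 and 3463.5, and SBPASE, sedoheptulose bisphosphatase of the same cycle, at 3200.1, 3302 and 2718. HPR, the hydroxypyruvate reductase of photorespiration, was at 3117, 3408 and 3022. All 3 genes were highest in array 2 and lowest in array 3. Other nuclear genes with a symbol were ECS1, which encodes a cell wall protein, at 7114, 8969 and 6694, GAPC2, a cytosolic glycolytic enzyme, at 3291, 3329 and 2910.1, and THIC, of thiamine synthesis, at 2201, 2413 and 1921. CCL, whose name comes from its similarity in regulation to a clock-controlled RNA-binding protein gene, was at 2287, 2689 and 2197.

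**Figure D1:**
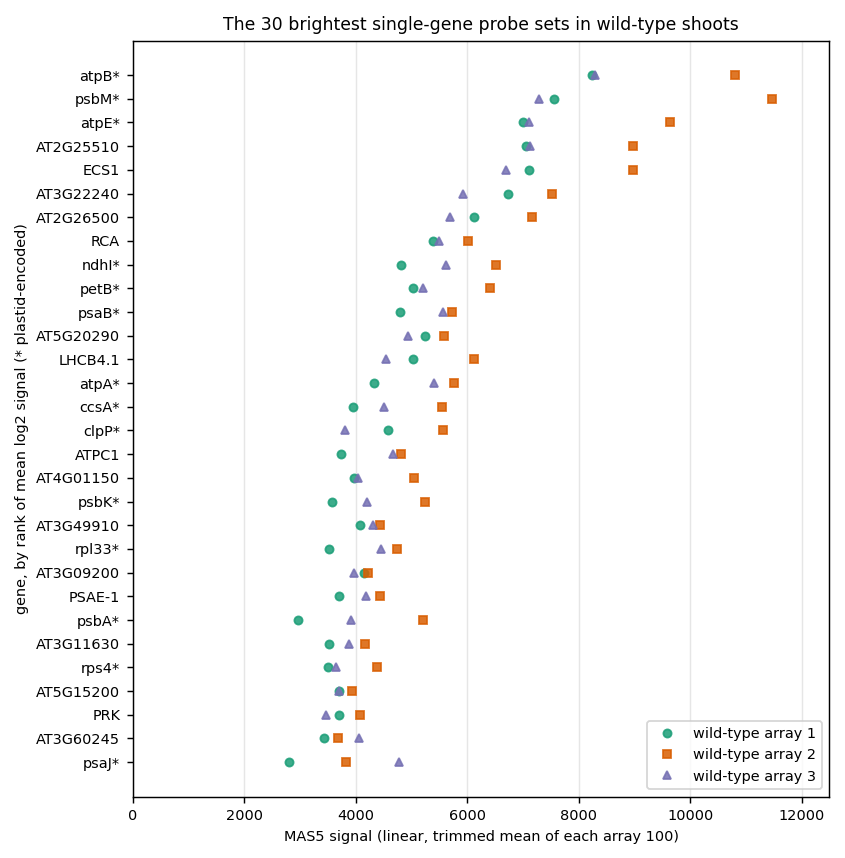
Linear MAS5 signal of the 30 brightest single-gene probe sets on each of the 3 wild-type arrays, in order of mean log2 signal. An asterisk marks the 14 plastid-encoded genes, and array 2 lies to the right for most genes.

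Among genes known here only by their identifier, AT2G25510 was the brightest at 7059.6, 8971 and 7119.9. AT3G22240 and AT2G26500 followed at 6727, 7519 and 5917 and at 6118, 7165 and 5684. Rank 100 fell to the photosystem I gene psaI, at 1834, 2420.4 and 2112, and rank 101 to AT5G65220, at 1938, 2215 and 2130.3. These ranges overlap almost entirely, so the limit of 100 is an arbitrary one.

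The arrays agreed on which probe sets were bright. Of the 100, 92, 97 and 91 were also among the 100 brightest of arrays 1, 2 and 3 taken alone, and 84 probe sets were in that set on all 3 arrays. Array 2 gave the highest signal for 76 of the 100, array 3 for 18 and array 1 for 6. The 73 nuclear members had a median SD of 0.12 on the log2 scale and the 27 plastid members one of 0.23. No member of the 100 differed 2-fold among the 3 arrays, and the largest ratio of the highest to the lowest signal was 1.76, in psbA.

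The bright set was largely shared with the mutants. Of the 100 brightest, 93 were also among the 100 brightest of the triple mutant and 94 among those of the constans mutant. A limma fit of all 9 arrays, with an adjusted p under 0.05 as the threshold, called 13 of 14173 tested probe sets (0.0917%) between wild type and the triple mutant. For the constans mutant against wild type, 198 (1.40%) were called. None of the 100 brightest passed in either limma comparison, while 9 and 2 of them had an unadjusted p under 0.05. Over all tested probe sets 923 (6.51%) and 1600 (11.3%) had one. The median log2 difference of the 100 from wild type was -0.11 for the triple and 0.06 for the constans mutant, where the medians over all tested probe sets were 0.01 and -0.002. Both comparisons use the same wild-type arrays. The wild type and the triple mutant were given as different Columbia lines, and no background was stated for the constans mutant. Effects of mutation and background can therefore not be told apart.

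All 69 plastid probe sets had a wild-type mean past the filter on dim signals described below, with a median signal of 1492 against 24.9 for all single-gene probe sets. Their geometric means ran from 127 in ndhH of the NDH complex to 9044 in atpB. By complex, the median was highest for the 6 ATP synthase genes at 3161, followed by 15 photosystem II genes at 1731 and 7 photosystem I genes at 1233. The 15 ribosomal protein genes had a median of 1005, the 10 NDH genes 915, the 4 RNA polymerase genes 741 and the 7 genes of cytochrome b6f and cytochrome c assembly 663. Each of these complexes held members of unlike signal, in photosystem I from 599 in psaC to 5346 in psaB. The gene of the large subunit of Rubisco, rbcL, ranked 306th with signals of 513, 941 and 1047.

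Probe sets of genes that lie next to each other in the plastid genome did not have similar signals. The pairs were taken by gene order alone and include genes read from opposite strands. In the 64 neighbouring pairs in which both genes had a probe set, the median difference was 3.49-fold, against 2.90-fold over all 2346 pairs of the 69. The widest step, 28.4-fold, lay between petB, with a mean signal of 5516, and petD, subunit IV of the same cytochrome b6f complex, with 194. The RNA polymerase genes rpoB, rpoC1 and rpoC2 are consecutive and stood at 147, 1492 and 368. Probe sets of the same gene also differed. The 152 genes with more than 1 single-gene probe set had a median ratio of 3.88 between their brightest and dimmest probe set, and in 108 of them it was at least 2-fold. A step between neighbouring genes can therefore not be told apart from a difference between probes.

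The plastid probe sets shifted together between the 3 wild-type arrays. Array 1 was never the highest and was the lowest for 61 of the 69, array 2 was the highest for 31 and array 3 for 38. Relative to each gene's mean, the median log2 deviation was -0.27 in array 1, 0.11 in array 2 and 0.14 in array 3. Over the other single-gene probe sets past the filter on dim signals it was 0.02, -0.01 and -0.01. The plastid share of the summed signal was 3.66%, 4.68% and 4.55%. Of the 69, 14 differed at least 2-fold between the highest and the lowest array, against 349 of 13648 probe sets (2.56%) in all, a difference that was not tested.

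Arrays 2 and 3 were high for different plastid genes. Of the 35 brighter plastid probe sets, 24 were highest in array 2 and 11 in array 3. Of the 34 dimmer ones, 7 were highest in array 2 and 27 in array 3. A high array 2 was not particular to bright plastid genes. It was also the highest for 54 of the 73 nuclear members of the 100 brightest. Apart from rbcL, a group of a single gene, the subunits of the plastid RNA polymerase showed the widest split. Their median deviations were -0.38, -0.25 and 0.63. Its beta subunit gene rpoB gave 79.7, 111 and 363 in arrays 1, 2 and 3, and rpoC2 gave 257, 253 and 767. In both, array 3 stood apart and arrays 1 and 2 lay close together. The other subunit genes differed less. The signal of rpoA was 2296, 3173 and 2692, highest in array 2, and that of rpoC1 was 1372, 1407 and 1720.

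In all, 8 plastid genes were at least 2-fold higher in array 3 than in the mean of arrays 1 and 2. Besides rpoB and rpoC2 these were ndhH, atpI of the ATP synthase, psaA of the photosystem I core, psbD, the D2 protein of photosystem II, and the ribosomal protein genes rpl36 and rps14. The signal of psaA was 785, 928 and 1968, and that of psbD was 403, 554 and 1055. The photosystem II assembly gene psbN, which is read from the strand opposite to its neighbours, ran the other way at 292, 426 and 131. Its neighbours psbT and psbH were at 680.2, 1001 and 1143 and at 1323, 1580.4 and 2411.

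The 8 genes higher in array 3 also differed between the constans arrays and lay closer together inside the triple mutant. For psbN the spread was wider inside the triple mutant, at 215, 154 and 98.4, than inside the constans mutant, at 199, 260 and 148. The 25S ribosomal RNA control gave 42.4, 16.9 and 15.9 on the triple mutant arrays and 56.5, 1152 and 1079 on the constans ones. On those arrays rpoB gave 44.4, 51.3 and 38.6 and 61.2, 246 and 290.2. The signal of rps14 was 219, 315 and 539 in wild type, 113, 106 and 77.1 on triple mutant arrays and 141, 852 and 567 on constans arrays. The 3 highest rpoB signals of the 9 arrays were thus on the 3 arrays with the highest 25S control. The part of the ribosomal RNA, or of the actin ratio, in the plastid differences was not tested. None of the 69 passed in either limma comparison, with an unadjusted p under 0.05 for 28 (40.6%) in the triple and 0 in the constans comparison, beside 6.51% and 11.3% of all tested probe sets.

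**Figure D2:**
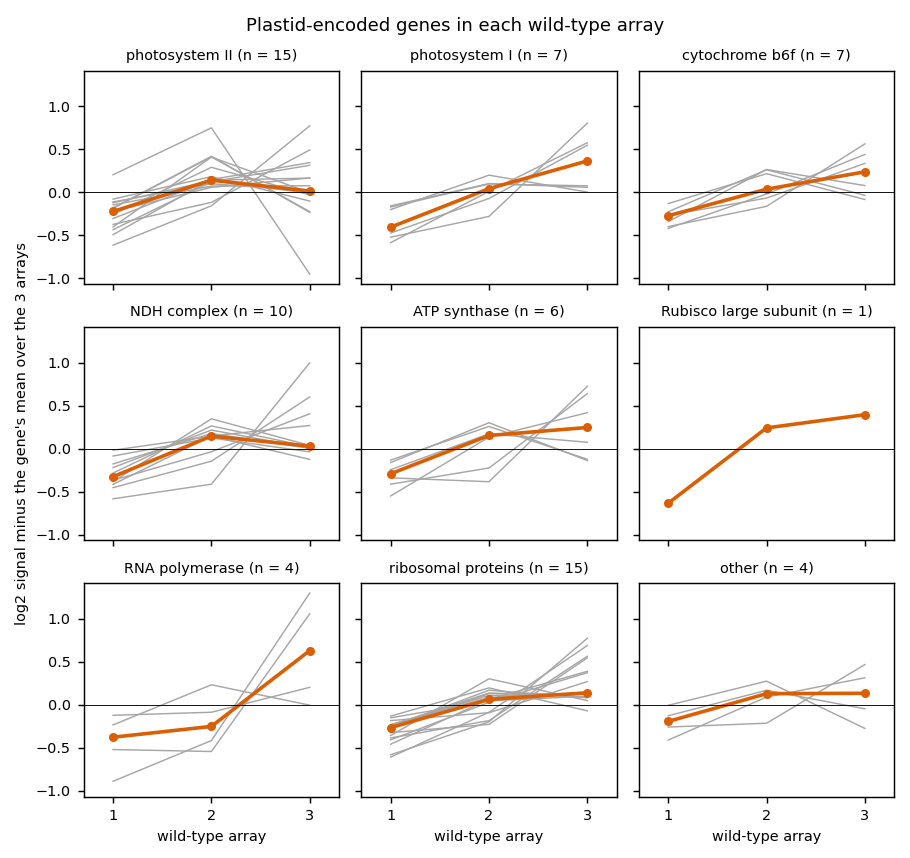
Log2 signal of each plastid-encoded gene minus its mean over the 3 wild-type arrays, by complex or role, where thin grey lines join the 3 values of a gene and the thick line joins the medians. The arrays have no order, and array 1 lies below the others in every group.

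Gene families were compared by the median signal of their members with the median of all single-gene probe sets, 24.9. The families described here numbered 42, each with at least 3 probe sets, and held 585 probe sets. Most were nuclear, but the plastid-encoded and the mitochondrion-encoded genes were counted among them. The median was above 24.9 in 26 of them and below it in 16. Genes given by a symbol, from which most families were drawn, had a higher median, 54.8, than all single-gene probe sets.

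Photosynthesis families led the order. The 3 Calvin cycle genes RCA, PRK and SBPASE had a median of 3736, and 5 nuclear photosystem genes one of 2621, from PSB27, a photosystem II assembly factor, at 2240.2 to PSAE-1 at 4098. The antenna family consisted of 3 LHCB4 genes, which encode the minor antenna CP29. They differed widely, with LHCB4.1 at a mean of 5190.01 and LHCB4.2 and LHCB4.3 at 913 and 680.2. LHCB4.3 was also among the steadiest probe sets, at 686, 680.3 and 675.

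The 11 genes of chlorophyll and heme synthesis had a median of 464. CHLM, the magnesium protoporphyrin methyltransferase, led at 1409.5, 1396 and 1689, followed by PORB, a light-dependent protochlorophyllide reductase, at 1095, 1290.3 and 957. HEMB1 was at 770.2, 799 and 760.1. The family also held dim members. HEMA3, a minor isoform of the first committed enzyme, stood at 1.37, 4.91 and 2.81.

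Families of basic cell machinery had intermediate medians. Tubulins had a median of 375, with the alpha-tubulin gene TUA6 at 1948, 1978 and 1657 and TUB1 near the bottom of its family at 62.5, 72.0 and 70.1. Histones had a median of 224, where the core histone genes HTB4 and HTB1 stood at 493, 488 and 573 and at 439, 436 and 403. The linker histone gene HIS1-3, which is induced by drought, was dim and uneven at 2.94, 17.8 and 6.39. Medians were 186 for ubiquitins and ubiquitin-conjugating enzymes, 157 for the a subunits of the vacuolar ATPase, 153 for the citrate cycle and pyruvate dehydrogenase, 106 for the autophagy proteins ATG8 and ATG3 and 67.5 for nuclear RNA polymerase subunits. Within the citrate cycle group cICDH, the cytosolic isocitrate dehydrogenase, reached 2125, 2132 and 1503. The 23 mitochondrion-encoded probe sets had a median of 25.2, far below the plastid ones, and nad4 of complex I led them at 328, 313 and 301.

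Of 27 probe sets of expansins and xyloglucan endotransglucosylases, enzymes and proteins of the cell wall, 14 (51.9%) reached the wild-type filter of 18.5, the 40th percentile of all probe sets. Of all 13513 single-gene probe sets, 7378 (54.6%) did so. EXLA1, an expansin-like gene, led at 345, 471 and 494. Only 4 of the 15 GH9 endoglucanase probe sets reached the filter. SWEET11, a sucrose exporter of phloem parenchyma, gave 1488, 1454 and 1173, while SWEET1, next in the family of 14, gave 175, 149 and 125.

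Enzyme families of secondary metabolism were mostly dim. The 47 UDP-glycosyltransferase probe sets had a median of 9.69, and 18 reached the filter. UGT88A1 had the highest mean, with signals of 389, 326 and 325. UGT78D2 and UGT78D1, which attach sugars to flavonols, were at 331.5, 309 and 323 and at 277, 239 and 309.6, and UGT74B1, of glucosinolate synthesis, was at 247, 249.8 and 329. The 24 cytochrome P450 probe sets had a median of 12.2, with CYP71B6 brightest at 185, 184 and 151. Glutathione transferases had a median of 17.9, and GSTU20 stood far above the others at 1570.3, 2089.8 and 1626. Among 21 beta-glucosidase probe sets the median was 6.88, and BGLU44 led at 645, 816 and 704.

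Regulatory families differed in median, over the members with a single-gene probe set and a family symbol, which do not stand for whole families. Those of the IAA repressors of auxin response were IAA18, IAA20, IAA29, IAA30, IAA31, IAA33 and IAA34. They had a median of 5.04, with only IAA18 reaching the filter, at 179, 202 and 217. The bHLH set, made of bHLH34, bHLH101, bHLH104, bHLH115, bHLH121 and BIM1, had a median of 102. Its bHLH115 and bHLH104, transcription factors of iron uptake, stood at 218, 228 and 157 and at 150.3, 152 and 183. BZIP53, a bZIP factor of amino acid metabolism and seed genes, was the brightest transcription factor of these families at 569, 718 and 629.6. WRKY53, of leaf senescence, was at 132, 129.9 and 102.

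Families of small secreted peptides held both extremes. The plant defensins had the lowest median of the 42 families, 3.28, yet LCR69 gave 1523, 1677 and 1589 and LCR68 gave 983, 889 and 952. Of 11 RALF-like peptide probe sets, RALFL34 and RALFL33, peptides that act on receptor kinases of cell growth, were at 1025, 1160.2 and 953 and at 867, 979 and 1050.1. RALFL27 lay under the floor of 1.03 on all 3 arrays.

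**Figure D3:**
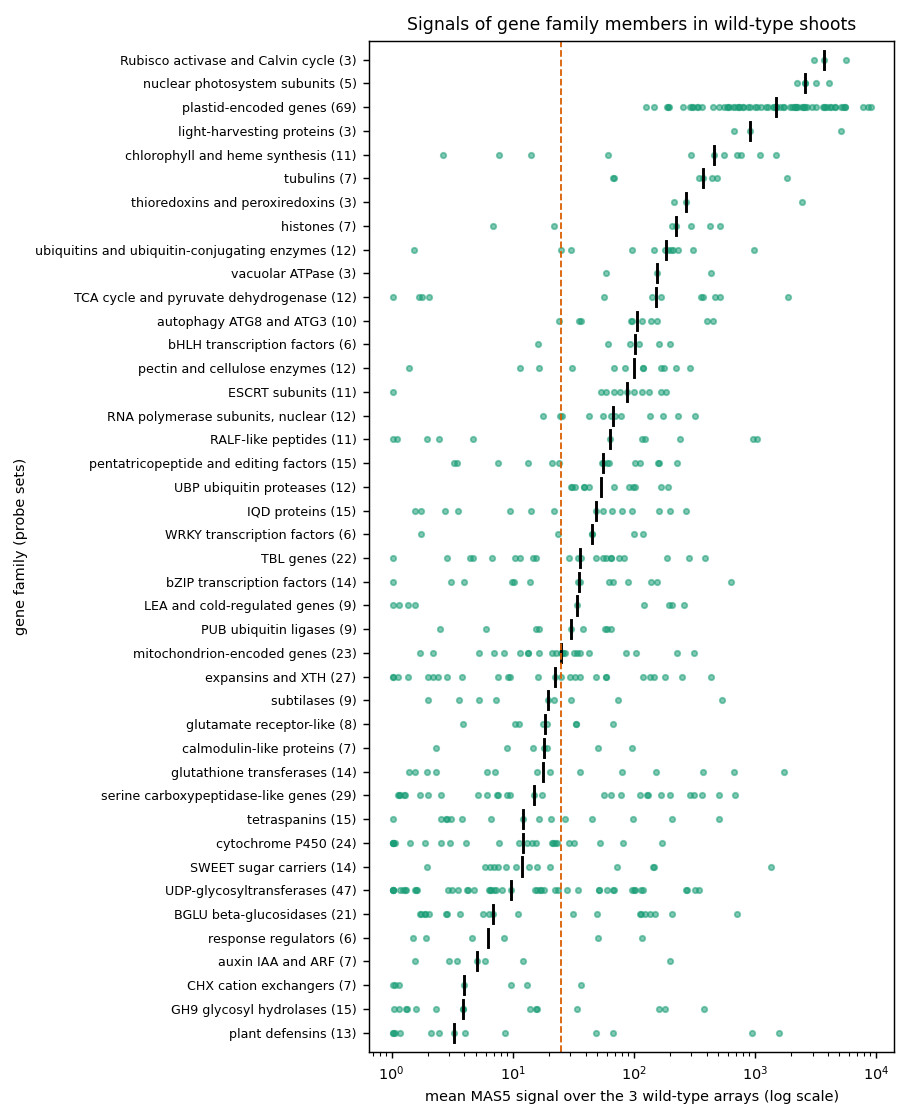
Mean MAS5 signal over the 3 wild-type arrays on a log scale for each member of 42 gene families, with the number of probe sets in parentheses. Black bars are family medians and the dashed line is the median of all single-gene probe sets, 24.9.

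Evening genes could be examined only in part, because 2 of 21 clock genes had a single-gene probe set. GI, a regulator of flowering that peaks late in a long day, stood at 35.4, 31.0 and 27.2. RVE6 (AT5G52660), a MYB-like factor of the morning, stood at 43.3, 31.4 and 35.8. The ranges overlapped, and both were close to the median of all probe sets. COR27, a cold-regulated gene under clock control, was at 113, 141.5 and 112.

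Of the 585 family members, 382 were tested. In the triple comparison limma called 0 of them, beside 0.0917% of all tested probe sets, and in the constans comparison 3 (0.785%), beside 1.40%. An unadjusted p under 0.05 was found for 47 (12.3%) and 49 (12.8%), where 6.51% and 11.3% of all tested probe sets had one. The family members include the 69 plastid probe sets, which gave 28 of the 47 and 0 of the 49. In the constans mutant EXLA1 rose by 0.66 ± 0.15 (SE) on the log2 scale and PUB24, a ubiquitin ligase of immune signalling, rose by 0.98 ± 0.18, while WRKY53 fell by 1.21 ± 0.18. Their limma adjusted p were 0.0402, 0.0130 and 0.00274. The call on EXLA1 was lost in 10 of 18 alternative fits, where the highest adjusted p was 0.220, and those on PUB24 and WRKY53 in 3 and 1.

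Most transcripts were steady among the wild-type arrays. Of 13648 probe sets at or above the filter, 349 (2.56%) differed at least 2-fold between the highest and the lowest array, and the median SD was 0.16 on the log2 scale. Inside the triple mutant 168 (1.23%) of the probe sets past its own filter did so, and inside the constans mutant 577 (4.23%). Wild type thus lay between the mutants in this count, and the difference was not tested. Without array 3 the wild-type count was 64, without array 2 it was 167 and without array 1 it was 199, each over the 2 arrays left.

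The spread depended on the level. With the probe sets divided into 10 groups by signal, the median SD fell from 0.26 in the dimmest group, between 18.5 and 27.5, to 0.12 in the brightest, above 489. The dimmest group held 139 of the 349 and the brightest held 10. Array 3 stood apart most often, high in 128 probe sets and low in 77. Array 2 stood apart in 17 and 58 and array 1 in 26 and 43.

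**Figure D4:**
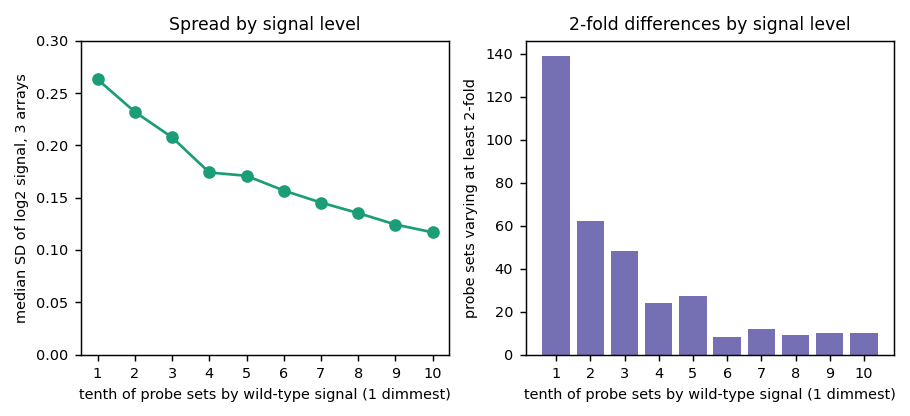
Probe sets past the filter divided into 10 groups of equal number by wild-type signal. The left panel shows the median SD of log2 signal among the 3 wild-type arrays, which falls from 0.26 to 0.12, and the right panel the number that differed at least 2-fold.

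Some of the probe sets that varied in wild type also varied inside the mutants. Of the 349, 104 (29.8%) differed 2-fold inside the constans mutant and 34 (9.74%) inside the triple mutant, against 621 (4.55%) and 220 (1.61%) of all 13648. These shares were not tested against each other. They were also not matched for signal level, on which the spread depended. Of the 349, 194 matched a single gene, and 14 of those were plastid-encoded.

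Among single-gene probe sets past the filter, a pair of plant defensin genes had the largest SDs between the wild-type arrays. PDF1.2b gave 16.7, 348 and 19.5 in arrays 1, 2 and 3, a 20.8-fold range, and PDF1.2, the classical marker of jasmonate and ethylene defence, gave 20.6, 362 and 41.6, a 17.5-fold range. Array 2 stood alone in both. The sequences of these paralogs are close, and the PDF1.2b probe set carries the suffix that Affymetrix uses where probes may match other transcripts, so the probe sets may share targets. Their signals also ran widely inside the triple mutant, where PDF1.2 was at 118, 50.2 and 271, and less so in the constans mutant, at 62.6, 98.7 and 74.5. The other defensins with a bright signal, LCR69 and LCR68, differed by less than 1.5-fold among the wild-type arrays.

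A further 18 genes made up the 20 with the largest SD. The plastid genes rpoB, rpoC2, psbN and ndhH were 4 of the 20, and 12 were known by identifier only. Array 3 was the highest in 10 of the 20, array 2 in 7 and array 1 in 3. The dimmer probe set of AT1G01320 was high in array 3 alone at 23.4, 26.6 and 103. Its mean was 40.0, against 832 for the other probe set of that gene. The brighter probe set of AT4G15810 was highest in array 2 at 46.3, 168.0 and 26.9. Its mean was 59.4, against 15.1 for the other. AT3G15650 was low in array 2 alone at 27.6, 6.68 and 42.8. HAT3.1, a homeobox gene, was spread evenly at 13.7, 26.5 and 47.5.

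Most of these genes were dim, with a median signal of 25.3 over the 20. AT4G16980 was read differently by its probe sets. The variable one gave 38.6, 86.6 and 16.1, while a second probe set of the same gene was among the 100 brightest at 2889, 3079 and 2213. None of the 20 passed in either limma comparison, while 4 (20%) in the triple and 1 (5%) in the constans comparison had an unadjusted p under 0.05, beside 6.51% and 11.3% of all tested probe sets. Their median SD was 1.04 in wild type, against 0.41 inside the triple and 0.76 inside the constans mutant. The wild-type value was fixed by the choice of the genes.

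**Figure D5:**
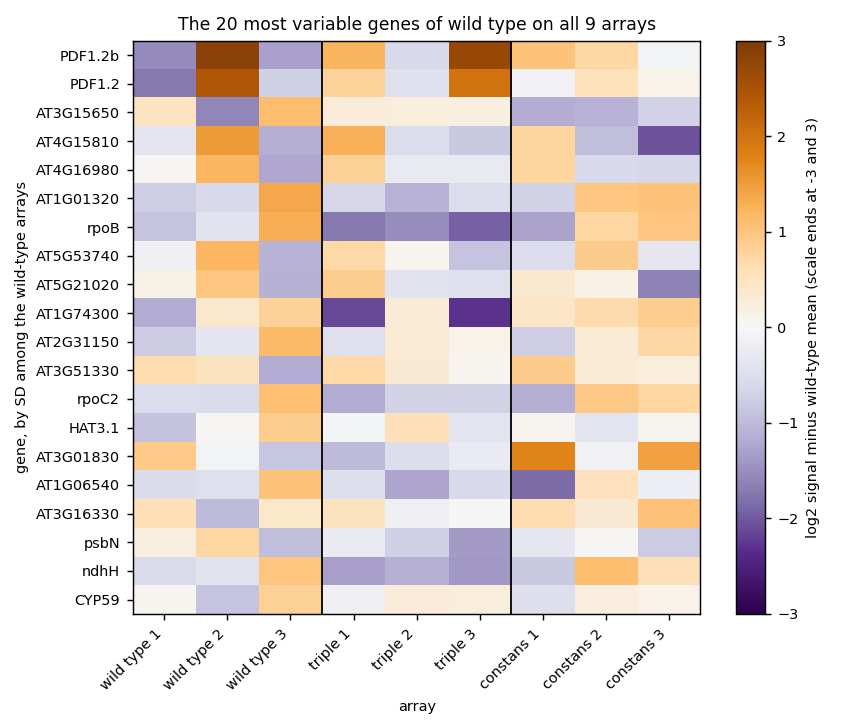
Log2 signal minus the wild-type mean for the 20 single-gene probe sets with the largest SD among the wild-type arrays, on all 9 arrays. PDF1.2b and PDF1.2 are high in wild type 2 and triple mutant 3, and rpoB, rpoC2 and ndhH are high in wild type 3 and in constans 2 and 3.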

How the data were processed

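The authors deposited MAS5 intensity values on a linear scale, made with MAS5 and GCOS per the submitters' processing notes, which give no version. The trimmed mean was near 100 on every array. Detection calls were not used here, and the number of arrays limits the precision. The genome build is not given in the sources used here, so no positions are printed.

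The 64 control probe sets were left out. Values under the pooled 10th percentile, 1.03, were raised to it before log2. Means are geometric. Probe sets with a group mean at or above the 40th percentile, 18.6, were fitted over the 3 genotypes with limma 3.58.1 in R 4.3.3 (lmFit, eBayes with trend, 6 residual degrees of freedom), with Benjamini-Hochberg adjustment over 14173 probe sets and a threshold of 0.05. The fit was tested on simulated data. Counts of 2-fold differences used probe sets with a wild-type mean of at least 18.5. Tables were handled in Python 3.11.15 with pandas 2.3.3.

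Gene names came from the platform annotation and the TAIR10.1 gene table, which matched 13436 of 13513 probe sets and gave plastid gene order. Families were taken by patterns on gene symbols or by the genome that holds the gene. Of 36 such patterns 17 gave at least 3 members, 14 gave 1 or 2 and 5 gave none. A further 25 were added after the annotation's symbols were read, and 14 symbols of unrelated genes were removed. Another family is not reported here. The members and lists were chosen with earlier results of these data known. Genes named were drawn, not in full, from the 30 brightest, the 20 of largest SD and the highest, lowest and most variable member of each family. Others were called members, measured clock and tissue markers and those around rank 100. Other members of the 100 brightest, the families and the plastid genome were picked once values were known.

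Alternatives were a pseudocount of 4.25 or no floor, median centring or quantile normalization, a filter at the 60th percentile or none, no trend, a fit of 2 groups, a replicate block, linear means, all probe sets, and each array left out.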

Additional observations from a re-analysis of the deposited data

How the results depend on the processing

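With 3 arrays, a spread is known only roughly, and a dim signal is limited by background. The count of calls in the triple mutant, 13, was 8 with median centring, 8 with quantile normalization, 4 with no trend and 28 with only the 2 groups compared, and 5 to 26 when an array was left out. In the constans mutant, 198 became 56 with no filter and 102 with no trend, and 94 to 225 when an array was left out, with 98 without constans 3 and 94 without wild type 2. For the triple mutant, leaving out wild type 1 or triple mutant 2 gave 5, leaving out wild type 3 or triple mutant 3 gave 7, and leaving out constans 1 gave 26. The 349 probe sets that varied 2-fold were 5424 with no filter, 89 with a filter at the 60th percentile and 64 to 199 without an array; fewer arrays or more dim probe sets enter by construction. The 100 brightest of all probe sets, named or not, carried 14.5% of the signal, and leaving out an array gave 9.68% to 10.3% for the named ones. Between 25 and 26 families stood above the common median, and GI stayed at 4.86 to 5.05 on the log2 scale. Of 168 alternative family medians 11 moved by more than the spread, by -0.53 to 0.96. Single calls were lost in 14 fits and none changed sign. The cause of these moves was not tested.

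Same-numbered arrays of different genotypes correlated at -0.04 to 0.23 in their deviations, so the numbers were not taken to pair the samples. With the replicate number as a block, 20 probe sets passed in the triple and 234 in the constans comparison.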

Other observations

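Other families of the wild-type shoot were described by the same measure. The cold-regulated gene COR15B was at 180.0, 279 and 354 in arrays 1, 2 and 3, and COR15A, which encodes a stromal protein that protects membranes, at 148, 238 and 247. Array 1 was the lowest and array 3 the highest in both, which were chosen after their values were seen, while COR27, at 113, 141.5 and 112, did not follow that order. ESCRT subunits, which sort membrane proteins for degradation, had a median signal of 88.2, and VPS46.2 led them at 169, 223 and 164. All 12 UBP ubiquitin proteases reached the wild-type filter, with a median of 54.1. Among pentatricopeptide and editing factors, which act on organelle transcripts, the median was 55.3, and CRR42 and CRR21 were steady at 229, 237 and 223 and at 111, 112 and 114. Serine carboxypeptidase-like genes had a median of 14.9, with SCPL49 at 625.5, 764 and 686. GLDH, the last enzyme of vitamin C synthesis, was the steadiest gene with a symbol past the filter, at 121.3, 120.8 and 121.2, and was chosen after its values were seen.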
